A study of Homo sapiens with 10 samples.

Results

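The voltage-gated and potassium ion channel genes were taken as all symbols of the gene families KCNA to KCNK, KCNN, KCNQ, KCNS, KCNT, KCNU and KCNV, the KCNM beta subunits, the KCNIP proteins, the SCN alpha and beta subunits, and the CACNA1, CACNA2D, CACNB and CACNG subunits of calcium channels. The rule used names alone and found 130 symbols of the 35940 in the table. Rows that shared a symbol were summed, which concerned 3 symbols. They were measured by bulk RNA sequencing in ESI017, a wild-type line of human embryonic stem cells held pluripotent in a defined medium, mTeSR1. The medium was supplemented with WNT3A protein (300 ng/ml) or CHIR99021 (8 µM), each for 6 h or for 18 h, and cells with no addition (mTeSR1) were the control. CHIR99021 blocks GSK3, which otherwise targets β-catenin for destruction, and so switches on the same pathway as the ligand from within the cell. Each of the 5 groups had 2 libraries, 1 from each of 2 biological repeats, except that both CHIR99021 18 h libraries came from repeat 2. The labels do not say whether these 2 libraries came from separate cultures, so every standard error and FDR given for CHIR99021 at 18 h may rest on repeats of a single sample in that group. All libraries came from a single cell line, the labels give no time for the mTeSR1 group and list no solvent control, and time in culture or solvent therefore cannot be told apart from the treatments. The p-values measure the spread between these libraries, and in bulk RNA fewer cells that express a gene and less RNA per cell cannot be told apart.

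Voltage-gated channels open when the membrane depolarises and let calcium, sodium or potassium ions pass through a pore formed by the alpha subunits, while auxiliary subunits set their gating and their transport to the surface. Potassium channels of the inward rectifier and tandem-pore (K2P) families have no voltage sensor of that kind and hold the resting membrane potential, and the KCNN channels open on a rise of intracellular calcium. Pluripotent stem cells are not excitable cells, yet they transcribe many of these genes, and the membrane potential is known to change as cells proliferate and differentiate.

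Most channel genes were transcribed at low levels. Of the 130 members, 7 had 0 counts in every library, 26 had some counts but too few to be tested, and 97 were tested among 15251 genes. The median mTeSR1 level of the 97 was 2.72 CPM (counts per 1e+06 after trimmed-mean scaling), with 28 members at 10 CPM or more and 21 under 1 CPM. Members at 0 throughout were KCNA4, KCNG4, KCNJ16, KCNJ18, KCNK18, KCNU1 and SCN10A, and a count of 3, the lowest level taken as measured, stood for 0.118 to 0.179 CPM. All 9 calcium channel alpha-1 genes and all 4 sodium channel beta genes were tested, against 9 of 16 inward rectifiers and 6 of 10 sodium channel alpha genes. Per kilobase of the longest annotated transcript, the highest mTeSR1 levels belonged to KCNK5 at 24.96 CPM per kb, CACNG7 at 22.5 and CACNA1H at 13.1, followed by CACNA2D2 at 9.19 and KCNN2 at 7.82. KCNK5 encodes an acid-sensitive K2P channel, CACNG7 a calcium channel gamma subunit named here for its rank alone, and CACNA1H a low-voltage-activated (T-type) calcium channel.

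Before the comparisons, the libraries were compared with each other. Totals ranged from 1.66e+07 to 2.67e+07 estimated counts. The pluripotency markers, 6 genes that include POU5F1 and LIN28A, summed to between 5465 and 6607 CPM in every library. Single markers varied more than their sum. POU5F1 had 951 CPM in mTeSR1 replicate 2 and 562 CPM in WNT3A 6 h replicate 2, against 1371.5 to 1790.1 CPM in the other libraries. NANOG ranged from 96.9 to 262.6 CPM. The primitive streak markers TBXT, MIXL1, EOMES and GSC summed to 232 and 241 CPM after 18 h of WNT3A. In mTeSR1 the streak markers summed to 0.471 and 1.59 CPM. The 2 CHIR99021 18 h libraries stood apart from each other, with streak sums of 22.1 CPM in replicate 1 and 209 CPM in replicate 2. Long transcripts were relatively more abundant in mTeSR1 replicate 2 and WNT3A 6 h replicate 2, where a gene's deviation from its mean correlated across genes with transcript length (Spearman's rho 0.379 and 0.478, against −0.306 to 0.0048 in the other libraries). Channel genes are long, with a median longest transcript of 5222.5 bases among members tested and 3616 among all genes tested. Results are therefore also given with transcript length as an offset.

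After 18 h of either treatment the channel genes stood lower than in mTeSR1 as a group. With the biological repeat as a term of the fit, 3 K2P potassium channels were among the genes called lower with each treatment. The summed level of all 130 members was 772 and 682 CPM after 18 h of WNT3A and 787 and 711 CPM after 18 h of CHIR99021, against 998 and 1048 CPM in mTeSR1. At 6 h the sums were 894 and 902 CPM with WNT3A and 856 and 843 CPM with CHIR99021, so that every treated library lay below both mTeSR1 libraries. By class, the K2P sum showed the widest gap in CPM, at 73.7 and 69.2 CPM with WNT3A and 91.1 and 62.2 CPM with CHIR99021 after 18 h, against 138 and 180 CPM in mTeSR1. The sum of the auxiliary potassium channel subunits was higher, at 33.8 and 38.2 CPM with WNT3A and 37.4 and 37.4 CPM with CHIR99021 after 18 h, against 28.0 and 32.1 CPM in mTeSR1. That gap was KCNMB4's: without this gene the sums were 10.8 and 16.2 CPM with WNT3A and 13.2 and 11.5 CPM with CHIR99021, against 14.8 and 14.1 CPM in mTeSR1. Of the 8 tested members of the class, 5 had log2 changes below 0 after 18 h of each treatment, with medians of −0.12 (WNT3A) and −0.16 (CHIR99021). These sums are descriptions and are dominated by the most abundant members.

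**Figure D1:**
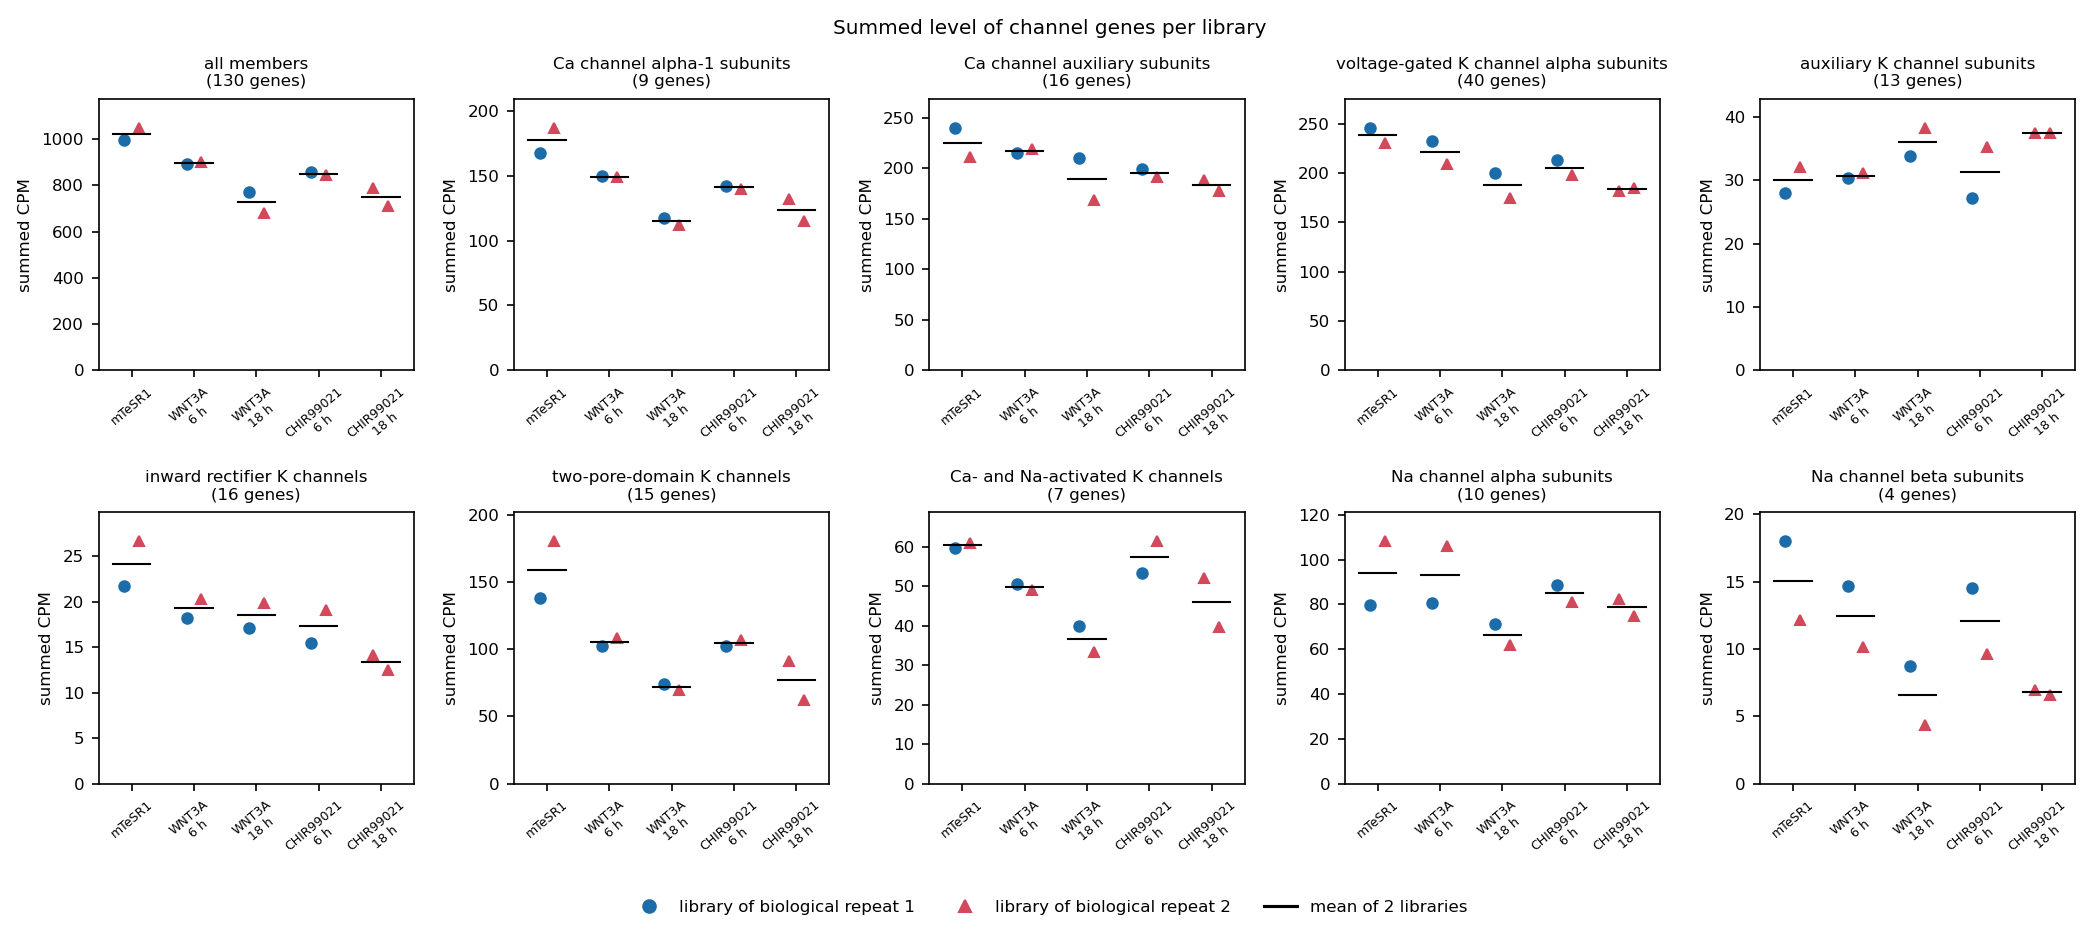
Summed CPM of all 130 channel genes and of each of the 9 classes, by group on the horizontal axis. Circles and triangles are libraries of biological repeats 1 and 2 and the black line is the mean of 2 libraries. The sum of all members lies between 682 and 902 CPM in the treated libraries, and at 998 and 1048 CPM in mTeSR1.

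Across the 97 members tested, the median log2 change over mTeSR1 was −0.16 after 6 h of WNT3A, −0.48 after 18 h of WNT3A, −0.24 after 6 h of CHIR99021 and −0.48 after 18 h of CHIR99021, while the medians of all genes tested lay between 0.01 and 0.02. The 4 comparisons share their mTeSR1 libraries and are not independent of each other. After 18 h, 80 of 97 members (82.5%) had a log2 change below 0 with WNT3A and 78 of 97 (80.4%) with CHIR99021, against 47.7% and 48.4% of all genes tested. The libraries of the groups did not overlap, treated below mTeSR1, for 51 of 97 members with WNT3A at 18 h and for 52 of 97 with CHIR99021 at 18 h, against 21.3% and 22.7% of all genes. Since a gene could enter the test on its mTeSR1 level alone, the counts were also taken without the filter, where 96 of 123 members lay below 0 with WNT3A at 18 h and 93 of 123 with CHIR99021 at 18 h. With length offsets the medians at 18 h were −0.36 with WNT3A and −0.42 with CHIR99021, and 80 and 70 of 97 members lay below 0. Without mTeSR1 replicate 2 and WNT3A 6 h replicate 2, chosen after the data were seen, the medians were −0.52 and −0.49, and 77 and 70 of 97 members lay below 0. For the fits without the filter, with length offsets and without these libraries, the share of all genes below 0 was not taken. Their counts of members therefore stand without a share of all genes to set them against. In mTeSR1 replicates 1 and 2 alike the members' median deviation from their own means was above 0 (0.20 and 0.26 on the log2 scale). It was also above 0 in the 6 h libraries (0.06 and 0.14 with WNT3A, 0.03 and 0.02 with CHIR99021) and below 0 in the 18 h libraries. These means include the 18 h libraries, so the deviations describe the same values and are no separate support.

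**Figure D2:**
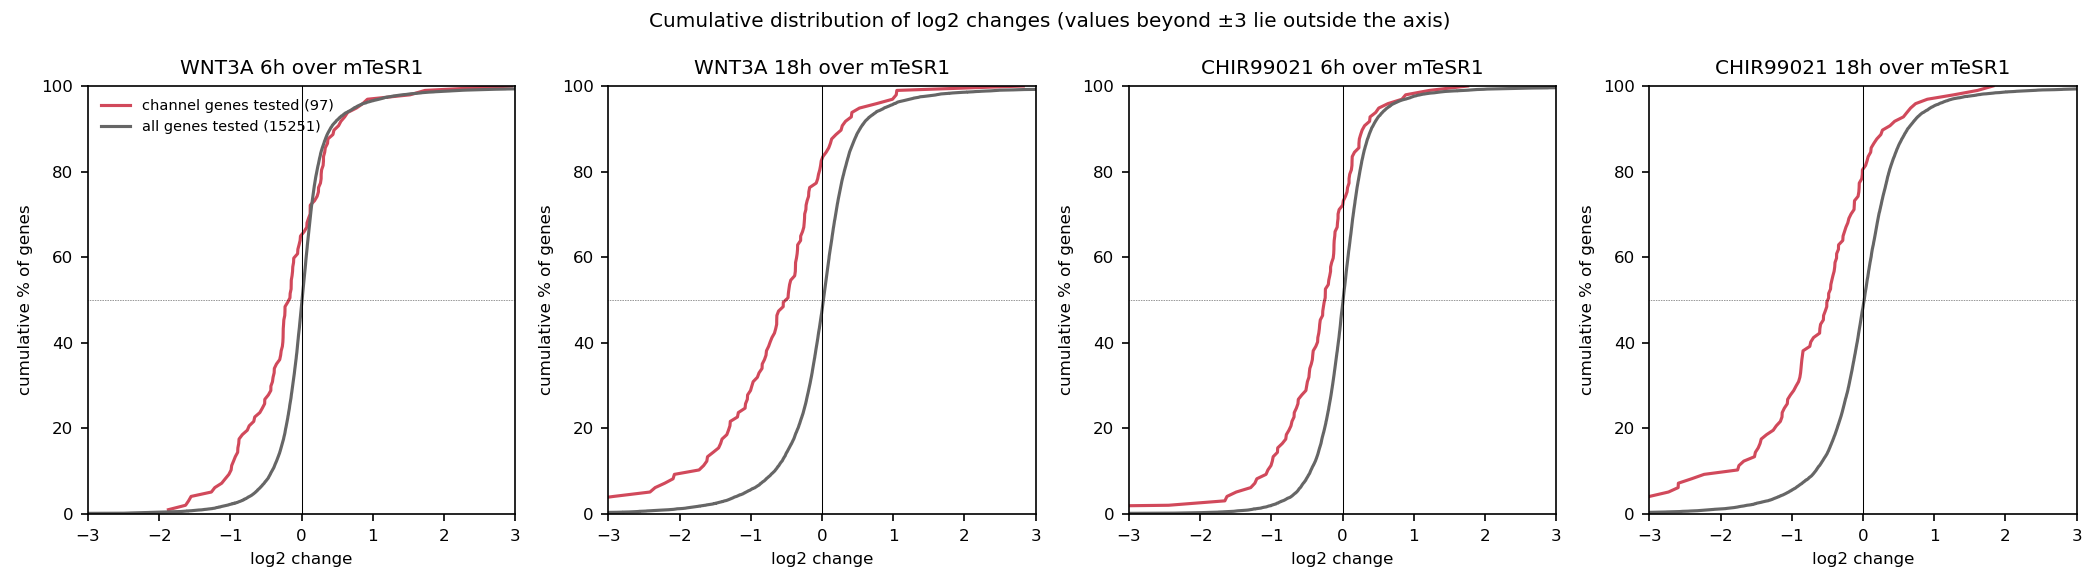
Cumulative percentage of genes (vertical axis) at or below each log2 change over mTeSR1 (horizontal axis), for the 97 channel genes tested (red) and all 15251 genes tested (grey), 1 panel per treatment and time. The red curve lies left of the grey one at the median in all 4 panels, and at 18 h its medians are −0.48 and −0.48.

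With WNT3A for 18 h, KCNK5 was the 1 member called by edgeR's quasi-likelihood test at a Benjamini-Hochberg adjusted p (FDR) under 0.05, a rate of 1 in 97 beside 2.1% of all genes tested. The biological repeats pair the libraries, and with the repeat as a block 16 members were called, beside 4.92% of all genes, 15 of them lower (15.5%, against 2.86% of all genes) and KCNG1 higher. At an unadjusted p under 0.05, 35 members passed (13.6% of all genes), 31 of them lower (7.68% of all genes). Leaving out any 1 of the 4 libraries compared left 0 members called without the block. Among all genes these fits called 50 to 81, against 320 with all libraries. With the block, leaving out WNT3A 18 h replicate 1 left 7 members called, beside 355 of all genes, and leaving out any other of the 4 libraries left 0, beside 75 to 195 of all genes. Without mTeSR1 replicate 2 and WNT3A 6 h replicate 2 together the blocked fit called 5 members, beside 436 of all genes. With all libraries the block gave 751 genes. With CHIR99021 for 18 h, whose fit had the block, 6 members were called, all lower, beside 2.78% of all genes in either direction and 1.63% lower. They were KCNK6, KCNK12, KCNK5, CACNG8, KCNS3 and CACNA1A. Without the block KCNK6 alone was called, beside 1.19% of all genes. At an unadjusted p under 0.05, 35 members passed with the block, beside 19.6% of all genes. The blocked fit with all libraries called 424 of all genes. It called 0 members without mTeSR1 replicate 2, where 10 of all genes were called, and 0 without CHIR99021 18 h replicate 2, beside 86 of all genes. It called 1 without mTeSR1 replicate 1 (KCNK6), beside 72 of all genes, and 7 without CHIR99021 18 h replicate 1, beside 523 of all genes. Without mTeSR1 replicate 2 and WNT3A 6 h replicate 2 together it called 0, beside 89 of all genes. Of the 2 blocked lists, 5 genes were in both, which is 31.25% of the WNT3A list and 83.3% of the CHIR99021 list.

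The K2P channels, background channels that draw the membrane towards the potassium equilibrium, held 3 of the 6 members called with CHIR99021 at 18 h. All 10 tested members of the class had log2 changes below 0 after 18 h of each treatment, with medians of −1.09 with WNT3A and −1.08 with CHIR99021. Lower levels were not particular to this class. The inward rectifiers had medians of −0.97 and −1.14, with 8 of 9 tested below 0 with each treatment. All 6 tested sodium channel alpha genes also lay below 0 with each treatment, with medians of −0.58 and −0.37. KCNK5 (ENSG00000164626, GRCh38 chr6:39188973-39229450, minus strand) had 50.3 and 50.5 CPM after 6 h and 41.0 and 35.5 CPM after 18 h of WNT3A, 60.0 and 59.6 CPM after 6 h and 52.9 and 34.1 CPM after 18 h of CHIR99021, and 78.6 and 109 CPM in mTeSR1. Every treated library was below both mTeSR1 libraries. The log2 change at 18 h was −1.29 ± 0.23 (SE, FDR = 0.0272 without the block and 0.0152 with it) with WNT3A, a 2.45-fold lower level, and −1.14 ± 0.23 (FDR = 0.0426) with CHIR99021. At 6 h the values were −0.89 ± 0.23 with WNT3A (FDR = 0.233) and −0.65 ± 0.22 with CHIR99021 (FDR = 0.954), which did not pass.

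KCNK6 (ENSG00000099337, chr19:38319844-38332076, plus strand), a weakly inward rectifying K2P channel, had 26.9 and 31.0 CPM after 6 h and 15.2 and 16.5 CPM after 18 h of WNT3A, 19.5 and 19.4 CPM after 6 h and 14.5 and 10.6 CPM after 18 h of CHIR99021, and 26.8 and 36.8 CPM in mTeSR1. The WNT3A 6 h libraries overlapped those of mTeSR1 and the other treated libraries lay below them. Its log2 change after 18 h of CHIR99021, −1.43 ± 0.20 (FDR = 0.0115), was 2.70-fold, and after 18 h of WNT3A it was −1.005 ± 0.21 (FDR = 0.0553 without the block, 0.0202 with it). KCNK12 (ENSG00000184261, chr2:47516581-47570939, minus strand), a K2P subunit of the halothane-inhibited kind, had 8.07 and 12.9 CPM after 6 h and 5.79 and 6.27 CPM after 18 h of WNT3A, 7.35 and 9.33 CPM after 6 h and 6.98 and 4.74 CPM after 18 h of CHIR99021, and 13.9 and 16.1 CPM in mTeSR1. All treated libraries again lay below both of mTeSR1. The log2 change at 18 h was −1.53 ± 0.25 with CHIR99021 (FDR = 0.0193) and −1.31 ± 0.29 with WNT3A (FDR = 0.0623, and 0.0172 with the block). All 3 genes were lower in CHIR99021 18 h replicate 2, the library with the higher streak marker sum, than in replicate 1, and the part of that difference between libraries in the results was not tested. None of the 3 has an exon that overlaps another gene in GENCODE 29.

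**Figure D3:**
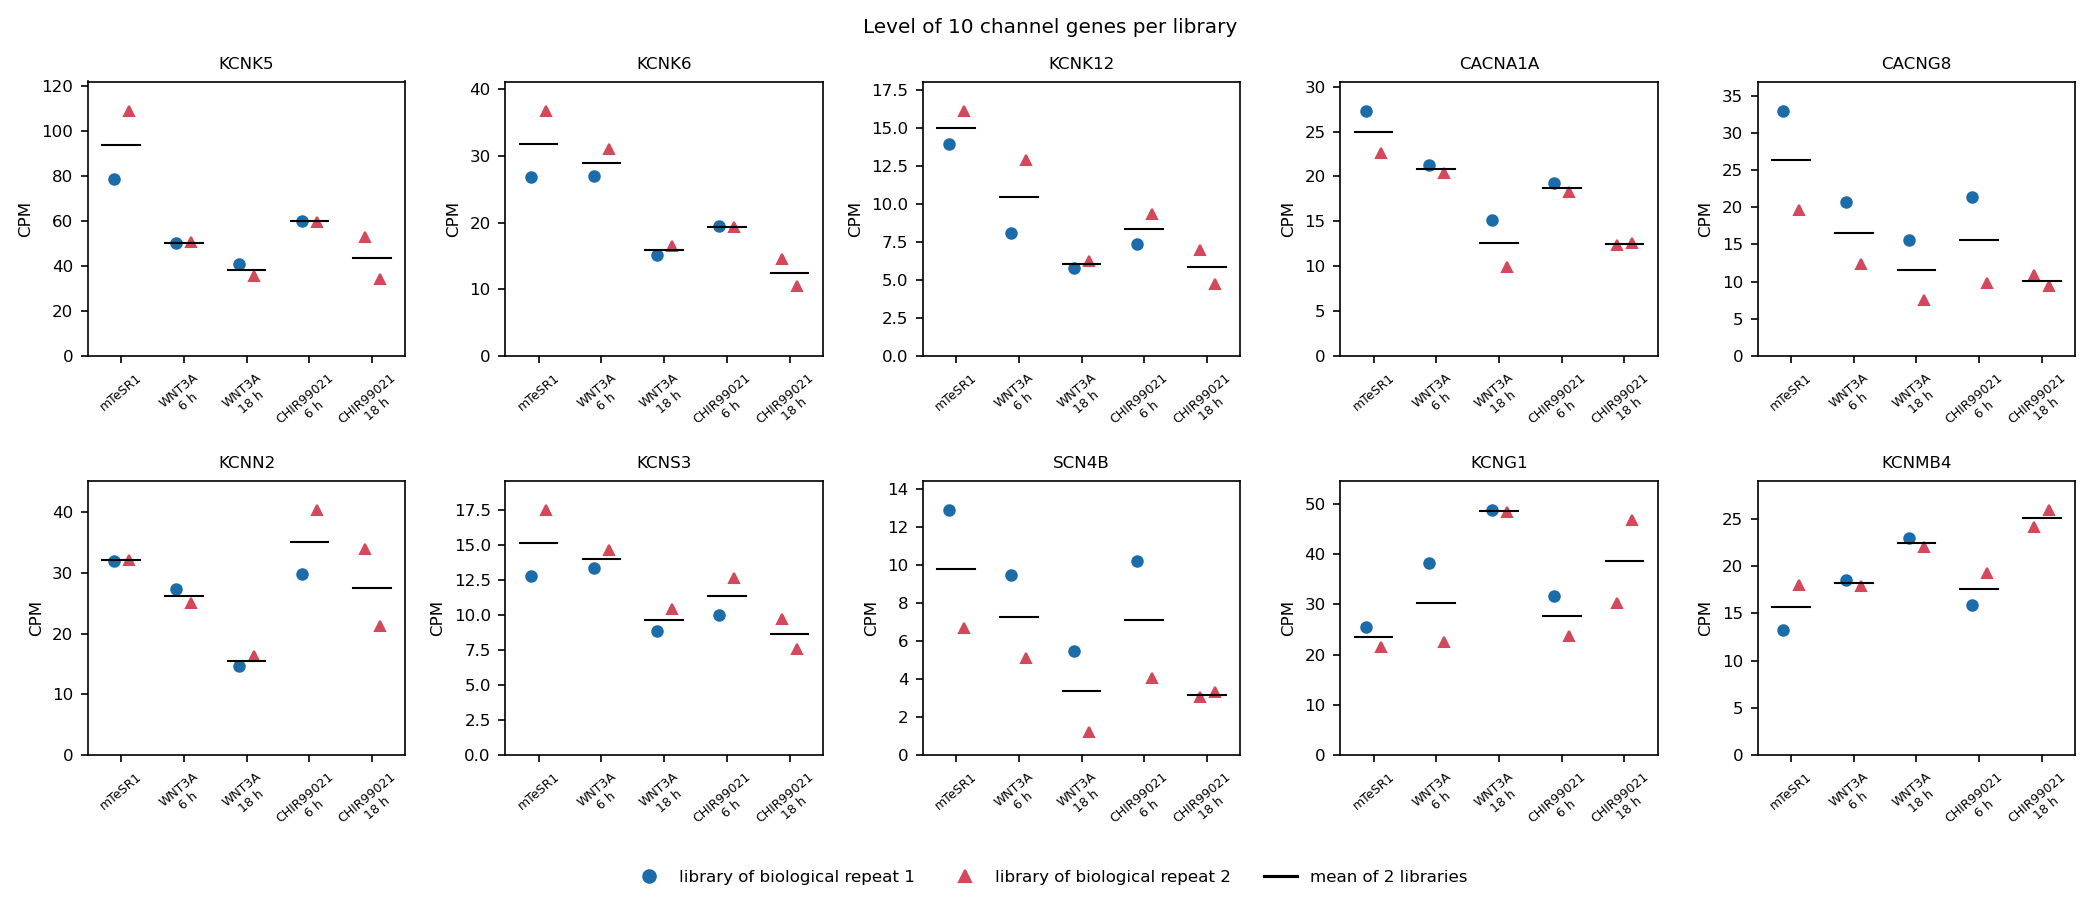
CPM of 10 channel genes (vertical axis) in each library, by group on the horizontal axis. Circles and triangles are libraries of biological repeats 1 and 2 and the black line is the mean of 2 libraries. For KCNK5 and KCNK12 every treated point lies below both mTeSR1 points, while for KCNG1 the WNT3A 18 h points (48.8 and 48.5 CPM) lie above them (25.5 and 21.4 CPM).

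Among the calcium channel genes, CACNA1A and CACNG8 were called with CHIR99021 at 18 h, and CACNA1A, CACNA1I and CACNG8 with WNT3A at 18 h where the repeat was a block, all of them lower. Of the 9 alpha-1 genes, which encode the pores, 8 had log2 changes below 0 after 18 h of each treatment, with medians of −0.79 (WNT3A) and −0.51 (CHIR99021). CACNA1A (ENSG00000141837, chr19:13206442-13633025, minus strand), the pore of the P/Q-type channel that triggers transmitter release in neurons, had 15.2 and 9.96 CPM after 18 h of WNT3A and 12.4 and 12.6 CPM after 18 h of CHIR99021, against 27.3 and 22.6 CPM in mTeSR1. The groups did not overlap, and the 6 h libraries lay between, at 18.2 to 21.3 CPM. It fell by 0.87 ± 0.18 on the log2 scale with CHIR99021 (FDR = 0.0459), and its value with WNT3A was −0.99 ± 0.21 (FDR = 0.0589, and 0.0146 with the block). CACNA1I, a T-type channel, had 1.84 and 2.82 CPM after 18 h of WNT3A against 5.33 and 7.15 CPM in mTeSR1, a log2 change of −1.42 ± 0.38 (FDR = 0.115, and 0.0331 with the block). CACNA1H, the most abundant T-type channel gene in mTeSR1, had 71.9 and 76.1 CPM after 18 h of WNT3A and 87.6 and 69.3 CPM after 18 h of CHIR99021, against 95.5 and 120 CPM in mTeSR1, and did not pass (FDR = 0.149 and 0.126).

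CACNG8 (ENSG00000142408, chr19:53963040-53990215, plus strand), a gamma subunit best known as a partner of AMPA-type glutamate receptors, had 15.5 and 7.48 CPM after 18 h of WNT3A and 10.9 and 9.37 CPM after 18 h of CHIR99021, against 33.0 and 19.7 CPM in mTeSR1. In each group with both repeats, its level was higher in repeat 1 than in repeat 2. Its log2 change was −0.88 ± 0.18 with CHIR99021 (FDR = 0.0426). With WNT3A at 18 h it was −1.19 ± 0.47 without the block (FDR = 0.296) and −1.23 ± 0.17 with it (FDR = 0.00643). The α2δ subunits CACNA2D1 and CACNA2D2, which carry alpha-1 subunits to the surface, had log2 changes at 18 h of 0.20 ± 0.30 and −0.19 ± 0.16 with WNT3A and of 0.11 ± 0.23 and −0.12 ± 0.15 with CHIR99021, none of which passed. CACNG7, the auxiliary gene with the highest mTeSR1 level and chosen for that after its values were seen, had 60.1 and 27.9 CPM after 18 h of WNT3A and 31.9 and 28.6 CPM after 18 h of CHIR99021, against 75.6 and 45.3 CPM in mTeSR1. The WNT3A 18 h libraries overlapped those of mTeSR1 and the CHIR99021 18 h libraries lay below both. Its log2 changes of −0.46 ± 0.42 with WNT3A (FDR = 0.712) and −0.55 ± 0.21 with CHIR99021 (FDR = 0.193) did not pass. For CACNA2D2, 9.59% of exon bases overlap genes on the other strand, whose reads were not separated here.

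The voltage-gated potassium channel alpha subunits were the largest class, and its 33 tested members included the one gene called higher. With the block, WNT3A at 18 h called 6 of them lower and 1 higher. KCNG1 (ENSG00000026559, chr20:51003656-51023129, minus strand), a modulatory subunit that is silent on its own and alters channels of the KCNB family, had 38.2 and 22.6 CPM after 6 h and 48.8 and 48.5 CPM after 18 h of WNT3A, 31.7 and 23.6 CPM after 6 h and 30.4 and 46.8 CPM after 18 h of CHIR99021, and 25.5 and 21.4 CPM in mTeSR1. Both 18 h groups lay above mTeSR1 and the 6 h groups overlapped it. The log2 change after 18 h of WNT3A was 1.05 ± 0.29 (FDR = 0.128, and 0.0368 with the block) and after 18 h of CHIR99021 it was 0.90 ± 0.25 (FDR = 0.1), which did not pass. An antisense gene covers 7.98% of its exon bases. KCNS3 (ENSG00000170745, chr2:17877847-18361616, plus strand), another silent partner of KCNB channels, behaved in the other direction, with 9.73 and 7.56 CPM after 18 h of CHIR99021 against 12.8 and 17.5 CPM in mTeSR1, and fell by 0.94 ± 0.19 on the log2 scale (FDR = 0.0439).

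Among the lower genes of this class with the block after 18 h of WNT3A were KCND1, KCNG3, KCNC1 and KCNF1. KCNC1, which forms a fast channel of the Shaw family, had a blocked log2 change of −2.39 ± 0.44 (FDR = 0.0197). KCND1, an A-type channel, KCNG3, a silent subunit like KCNG1, and KCNF1, a further silent subunit, changed by −0.90 ± 0.19, −1.28 ± 0.29 and −2.43 ± 0.56 with the block (FDR = 0.0353, 0.0401 and 0.044). KCNC1 and KCNF1 are rare, at 0.753 and 0.403 CPM and at 0.330 and 0.345 CPM after 18 h of WNT3A, against 3.66 and 2.33 CPM and 1.67 and 1.99 CPM in mTeSR1. KCNH2, the delayed rectifier of the heart, had 11.4 and 13.5 CPM after 6 h of CHIR99021 against 18.7 and 21.2 CPM in mTeSR1, a log2 change of −0.68 ± 0.21 that did not pass (FDR = 0.947).

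**Figure D4:**
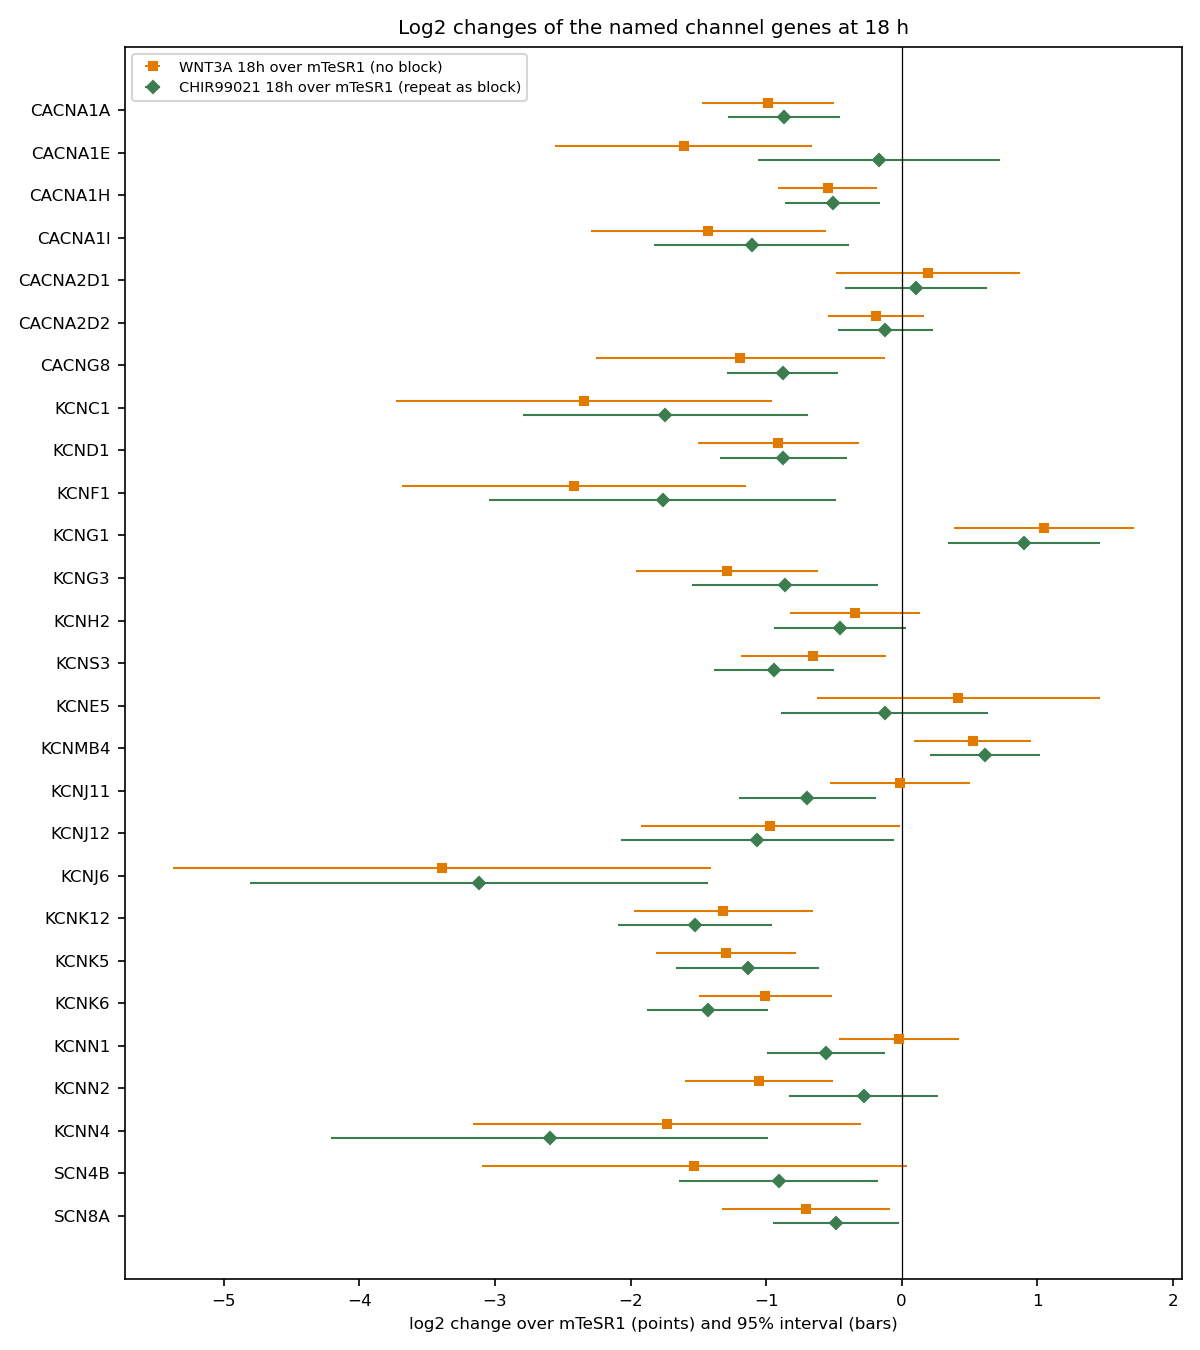
Log2 change over mTeSR1 after 18 h (horizontal axis; points, with bars for the 95% interval) of 27 channel genes named by rule (rows), with WNT3A above CHIR99021 in each row. Most points lie left of 0, KCNG1, KCNMB4 and CACNA2D1 lie to its right with both treatments, and KCNJ6, at the far left, had 2 counts in each WNT3A 18 h library.

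Calcium-activated potassium channels of the KCNN family couple calcium entry to hyperpolarisation. KCNN2 had 14.6 and 16.4 CPM after 18 h of WNT3A, 33.9 and 21.2 CPM after 18 h of CHIR99021, and 32.0 and 32.2 CPM in mTeSR1. Both WNT3A libraries lay well below mTeSR1, while those of CHIR99021 lay on either side of it. The log2 change was −1.05 ± 0.24 with WNT3A (FDR = 0.0694, and 0.0365 with the block) and −0.28 ± 0.24 with CHIR99021 (FDR = 0.525). KCNN4, the intermediate-conductance channel, had under 1 CPM in all treated libraries, against 1.73 and 2.61 CPM in mTeSR1, and its largest change, −2.60 ± 0.71 after 18 h of CHIR99021, did not pass (FDR = 0.0975). The related KCNN1 had 12.6 and 10.02 CPM after 18 h of WNT3A and 6.98 and 7.90 CPM after 18 h of CHIR99021, against 11.3 and 11.7 CPM in mTeSR1, and did not pass either (FDR = 0.98 and 0.166).

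Inward rectifiers were rare. Of 9 tested, 8 had log2 changes below 0 after 18 h of each treatment, with medians of −0.97 (WNT3A) and −1.14 (CHIR99021). KCNJ6, a channel gated by G proteins, was called with the block (FDR = 0.0401) with WNT3A. It had 0.0942 and 0.115 CPM after 18 h of WNT3A, which is 2 counts in each library and below the level of 3 counts, against 0.889 and 1.42 CPM in mTeSR1, so no fold is given. KCNJ11, the pore of the ATP-sensitive channel, had 9.42 and 8.29 CPM after 18 h of WNT3A and 6.09 and 5.59 CPM after 18 h of CHIR99021, against 8.00 and 9.87 CPM in mTeSR1, and did not pass (FDR = 0.987 and 0.145). KCNJ12 also did not pass, and its level is uncertain, since its near-identical copy KCNJ18 was at 0 in every library and how reads were divided between the copies was not tested.

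SCN8A, the pore of a sodium channel of nerve, had 22.6 and 25.3 CPM after 18 h of WNT3A and 34.7 and 28.5 CPM after 18 h of CHIR99021, against 33.2 and 44.7 CPM in mTeSR1. It did not pass with WNT3A (−0.70 ± 0.27, FDR = 0.282) or with CHIR99021 (−0.48 ± 0.20, FDR = 0.239). SCN4B, a beta subunit that alters sodium channel gating, had 5.51 and 1.21 CPM after 18 h of WNT3A and 3.04 and 3.33 CPM after 18 h of CHIR99021, against 12.9 and 6.69 CPM in mTeSR1. Its WNT3A 18 h and mTeSR1 libraries did not overlap, and in both groups the library of repeat 1 was the higher. The log2 change with WNT3A was −1.53 ± 0.69 without the block (FDR = 0.383) and −1.70 ± 0.31 with it (FDR = 0.018). Among the auxiliary potassium channel subunits, KCNMB4, a beta subunit of the large-conductance calcium-activated channel, had 23.0 and 22.0 CPM after 18 h of WNT3A and 24.2 and 26.0 CPM after 18 h of CHIR99021, against 13.3 and 18.0 CPM in mTeSR1. The 18 h libraries lay above both of mTeSR1, with log2 changes of 0.52 ± 0.19 and 0.62 ± 0.18 that did not pass (FDR = 0.244 and 0.113). KCNE5, the next most abundant auxiliary potassium channel subunit, did not pass in any comparison with mTeSR1.

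At 6 h, 0 members were called with WNT3A, beside 0.433% of all genes, and 0 with CHIR99021, beside 0.0197% of all genes. With the block the count remained 0 for both, beside 1.1% and 0.138% of all genes. At an unadjusted p under 0.05, 7 members passed with WNT3A (6.16% of all genes) and 8 with CHIR99021 (4.74% of all genes). DESeq2 called 1 (KCNK5) with WNT3A, beside 249 of all genes, and 0 with CHIR99021, beside 65 of all genes. Members with a log2 change below 0 numbered 63 of 97 with WNT3A and 69 of 97 with CHIR99021, against 48.9% and 48.8% of all genes. Precision was limited with 2 libraries per group, since the 95% interval of the log2 change with WNT3A at 6 h was wider than 1 to either side for 48 of 97 members.

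Directly compared at the same time, the ligand and the inhibitor gave no called difference in any channel gene. By edgeR, CHIR99021 over WNT3A gave 0 calls at 6 h, beside 0.00656% of all genes without the block and 0.0197% with it, and 0 at 18 h, beside 0% of all genes in either setting. DESeq2 likewise called 0 at both times, beside 30 of all genes at 6 h and 9 at 18 h. In the edgeR fits, 5 members at 6 h and 9 at 18 h had an unadjusted p under 0.05, beside 6.53% and 4.12% of all genes. At 18 h the difference in log2 level was 0.15 (95% interval −0.39 to 0.69) for KCNK5, −0.44 (−0.89 to 0.02) for KCNK6 and −0.22 (−0.80 to 0.37) for KCNK12. For 34 of 97 members the whole interval lay within 1 log2 unit of 0. The intervals of KCNN2, 0.77 (0.22 to 1.33), and CACNA1E, 1.46 (0.48 to 2.45), lay above 0, higher with CHIR99021, but neither passed adjustment (FDR = 1). The doses are of different agents and were not matched for strength. KCNK6 at 6 h had a difference of −0.58 (−1.06 to −0.09, FDR = 0.691), with 19.5 and 19.4 CPM with CHIR99021 against 26.9 and 31.0 CPM with WNT3A.

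Between 6 h and 18 h of the same treatment, 0 members were called for WNT3A without the block, beside 0.144% of all genes. For CHIR99021 0 were called with the block, beside 0.00656% of all genes, and 0 without it, beside 0%. At an unadjusted p under 0.05, 21 members passed for WNT3A (13.2% of all genes) and 8 for CHIR99021 (6.85% of all genes). DESeq2 called 4 for WNT3A, beside 415 of all genes, and 0 for CHIR99021, beside 134 of all genes. With the block, WNT3A called CACNA1E, beside 1.83% of all genes. CACNA1E (ENSG00000198216, chr1:181317690-181808084, plus strand), the pore of the R-type calcium channel, had 1.70 and 0.748 CPM after 18 h of WNT3A, against 4.01 and 5.34 CPM after 6 h. Both 18 h libraries lay below both 6 h libraries and below mTeSR1, at 3.82 and 3.74 CPM. The log2 change from 6 h to 18 h was −1.96 ± 0.39 with the block (FDR = 0.0494) and −1.92 ± 0.42 without it (FDR = 0.121). With CHIR99021 the level was 2.63 and 3.55 CPM at 18 h against 4.60 and 3.18 CPM at 6 h, a log2 change of −0.19 ± 0.40 (FDR = 0.968). The members' median log2 change between the times was −0.41 with WNT3A and −0.30 with CHIR99021, against 0.00 for all genes with each.

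The promoters of the 2 most abundant K2P genes called are shown first. Those of KCND1 and SCN4B follow because they hold a core TCF/LEF motif, the letters bound by the factors that act with β-catenin. They are the promoters among the called genes that hold it. All 4 were chosen after the values were seen. Sequences are from RefSeq (GRCh38.p14), 250 bases before to 50 after the RefSeq start of each gene, 5′ to 3′ on the gene's strand, with motif matches in capitals. The windows are chr6:39229426-39229725 (minus) for KCNK5, chr19:38319595-38319894 (plus) for KCNK6, chrX:48971795-48972094 (minus) for KCND1 and chr11:118145384-118145683 (minus) for SCN4B. For SCN4B the RefSeq start lies inside the gene as GENCODE 29 draws it. The KCND1 window lies wholly upstream of the gene as GENCODE 29 draws it (chrX:48961378-48971569, minus strand). Which starts these cells use was not measured.
KCNK5: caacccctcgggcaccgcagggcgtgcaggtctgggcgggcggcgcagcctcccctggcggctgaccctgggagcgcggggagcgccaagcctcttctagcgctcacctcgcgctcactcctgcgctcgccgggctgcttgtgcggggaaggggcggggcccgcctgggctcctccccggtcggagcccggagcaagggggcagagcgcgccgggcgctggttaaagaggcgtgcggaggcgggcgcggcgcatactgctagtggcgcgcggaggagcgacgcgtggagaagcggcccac
KCNK6: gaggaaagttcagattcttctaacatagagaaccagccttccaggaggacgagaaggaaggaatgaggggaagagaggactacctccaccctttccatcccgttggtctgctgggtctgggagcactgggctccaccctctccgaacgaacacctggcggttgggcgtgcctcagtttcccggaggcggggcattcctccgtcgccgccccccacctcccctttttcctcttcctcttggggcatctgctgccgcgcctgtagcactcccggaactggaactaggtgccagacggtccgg
KCND1: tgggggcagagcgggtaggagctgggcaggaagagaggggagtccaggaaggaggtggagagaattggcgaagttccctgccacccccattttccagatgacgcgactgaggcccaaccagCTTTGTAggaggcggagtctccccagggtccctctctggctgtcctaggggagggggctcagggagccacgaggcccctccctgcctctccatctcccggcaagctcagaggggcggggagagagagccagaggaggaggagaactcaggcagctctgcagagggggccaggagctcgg
SCN4B: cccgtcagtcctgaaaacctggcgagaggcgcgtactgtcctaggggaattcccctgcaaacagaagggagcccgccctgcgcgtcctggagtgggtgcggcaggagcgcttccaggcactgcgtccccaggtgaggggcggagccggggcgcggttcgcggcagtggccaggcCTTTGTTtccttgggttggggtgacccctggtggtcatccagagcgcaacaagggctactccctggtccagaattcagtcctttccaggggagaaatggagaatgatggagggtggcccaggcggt

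The core motif was searched as the letters CTTTGAA, the letters CTTTGAT, the letters CTTTGTA and the letters CTTTGTT, on either strand. The promoter of KCND1 has 1 match, CTTTGTA, whose first base is at −129 from the RefSeq start. That of SCN4B has 1, CTTTGTT, at −76 from its RefSeq start, and those of KCNK5 and KCNK6 have none. Of the 12 promoters available for genes called at 18 h, 2 (16.7%) held a match, beside 6 of 69 promoters of members tested (8.7%), 8.79% of promoters of all genes tested and 14.1% of all promoters of that length. A match is a string of letters, and no match in 300 bases says nothing of sites elsewhere. Promoters of CACNG8, KCNG1 and KCNK12 were not used here.

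Related genes outside the rule were listed by family: other potassium and calcium channel subunits, HCN and leak channels, sodium channel partners, intracellular calcium channels, TRP and PIEZO channels, chloride channels and the sodium pump, 89 genes of which 78 were tested. Their median log2 change at 18 h was −0.19 with WNT3A and −0.26 with CHIR99021, against −0.48 and −0.48 for the channel genes of the rule. With WNT3A at 18 h and no block, 4 of the 78 were called, all lower, beside 2.1% of all genes. RYR1 and ANO1 were among them. With the block 8 were called lower and 1 higher, beside 4.92% of all genes. With CHIR99021 at 18 h, 4 were called with the block, all lower, beside 2.78% of all genes. Without the block 1 was called, also lower, beside 1.19% of all genes. ANO1, a calcium-activated chloride channel, had 4.76 and 2.59 CPM after 18 h of WNT3A and 3.76 and 3.33 CPM after 18 h of CHIR99021, against 15.8 and 16.3 CPM in mTeSR1, and fell by 2.12 ± 0.31 (FDR = 0.0135) and by 2.07 ± 0.30 (FDR = 0.0129) on the log2 scale. RYR1, a calcium release channel of the endoplasmic reticulum, had 67.8 and 67.1 CPM and 86.2 and 65.2 CPM in the same groups, against 134 and 151 CPM in mTeSR1 (FDR = 0.0234 and 0.0306). KCNMA1, the pore of the large-conductance channel that KCNMB4 serves, had 6.31 and 4.43 CPM after 18 h of WNT3A against 11.7 and 10.5 CPM in mTeSR1, and was called with the block (−1.05 ± 0.20, FDR = 0.0231). TRPM3, a cation channel, was the one called higher with the block, with 23.5 and 18.1 CPM after 18 h of WNT3A against 10.9 and 10.04 CPM in mTeSR1 (FDR = 0.0387).

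Markers of cells that would carry many of these channels differed in direction. The 8 neuron markers, most of whose sum is TUBB3, summed to 268 and 310 CPM at lowest and highest after 18 h of WNT3A and to 256 and 281 CPM after 18 h of CHIR99021, against 344 and 402 CPM in mTeSR1. MAP2 had 9.47 and 2.94 CPM after 18 h of WNT3A and 4.30 and 4.40 CPM after 18 h of CHIR99021, against 29.7 and 17.3 CPM in mTeSR1. STMN2 was higher, at 2.35 and 1.38 CPM after 18 h of WNT3A and 0.537 and 1.07 CPM after 18 h of CHIR99021, against 0.628 and 0.397 CPM in mTeSR1, although with CHIR99021 the libraries overlapped. SYT1 had 39.7 and 40.7 CPM after 18 h of WNT3A and 39.1 and 35.3 CPM after 18 h of CHIR99021, against 33.7 and 56.2 CPM in mTeSR1. DCX had 8.62 and 10.6 CPM after 18 h of WNT3A and 9.55 and 9.59 CPM after 18 h of CHIR99021, against 6.80 and 15.9 CPM in mTeSR1. For SYT1 and DCX all 4 treated libraries lay between those of mTeSR1. ELAVL3, ELAVL4 and SNAP25, which define neurons, stayed under 1 CPM in all libraries. The muscle and heart markers summed to between 13.2 and 25.4 CPM, with MYH7 and NKX2-5 at or near 0, and the glial markers to between 50.1 and 95.5 CPM. The part of these markers in the channel results was not tested.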

How the data were processed

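Libraries were made from poly-A RNA with random priming and read as pairs, per the labels' protocols. The authors deposited estimated counts for each gene. The submitters' processing notes name Salmon 1.8.0 and GRCh38. The sources used here do not give the transcript set, the summary to genes or the strand setting. Estimated counts were summed per symbol, rounded and tested with edgeR 4.0.16 in R 4.3.3 (quasi-likelihood test, robust estimation, TMM scaling, a minimum count of 10 and total of 15). All 10 libraries entered 1 fit, p-values were adjusted over 15251 genes, and an FDR under 0.05 was a call. The test was checked on simulated data. Library totals were 1.66e+07 to 2.67e+07, and the floor of 3 counts covers counting error only. The intervals given for log2 changes come from the quasi-likelihood fit and include the estimated spread between libraries.

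The biological repeat was a block where CHIR99021 at 18 h was compared, since that group lacks repeat 1, and the other setting was run as an alternative. The series' design text gives the repeats. Deviations of same-numbered libraries from their group means had a Pearson correlation across genes between 0.277 and 0.691 in the 6 group pairs. The highest was between mTeSR1 and WNT3A 6 h, in whose replicate 2 libraries long transcripts were relatively more abundant. A skew shared by libraries also raises such a correlation, so it cannot by itself show that the numbers pair the libraries. No 2 replicates agreed within sampling noise. Coordinates and transcript lengths come from GENCODE 29, with coordinates for 129 of the 130 members. The 31 named genes were those called in any comparison in either block setting, the 3 of lowest p against mTeSR1 in each comparison, and the 2 most abundant of each class. Some of them are not reported here. The members and lists were chosen with earlier results of these data known. Alternatives were RLE scaling, other filters, DESeq2 1.42.0, separate identifiers, length offsets, 2-group fits and libraries left out.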

Additional observations from a re-analysis of the deposited data

Results flagged for a closer look

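CACNA1E, the R-type calcium channel gene, differed between the 2 times of WNT3A treatment. The log2 level at 18 h less that at 6 h, which is also the difference between the changes over mTeSR1 at the 2 times, was −1.961 with the biological repeat as a block (edgeR FDR = 0.0494). Its changes over mTeSR1 were −1.63 at 18 h and 0.33 at 6 h in that fit. The gene is rare, at 0.748 to 5.34 CPM in all 10 libraries, and without the block the FDR was 0.121.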

How the results depend on the processing

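In all alternatives run, no named call changed direction, and counts of called members moved. Calls among all genes moved too, and their number stands in brackets after each count. For WNT3A at 18 h over mTeSR1, where 1 member was called without the block (320 genes), 16 were called with the replicate block (751), 12 with no filter (576), 12 with DESeq2 (809), 4 with length offsets (416), 17 with length offsets and the replicate block (1152), and 4 with only the 2 groups in the fit (325). It was 0 when any 1 library of the 2 groups was left out (range 0 to 0, with 50 to 81 genes). In fits added after the data were seen it was 0 without mTeSR1 replicate 2 and WNT3A 6 h replicate 2 (124), 5 with that pair left out and the block (436), and 0 to 7 with the block and 1 library left out (75 to 355). For CHIR99021 at 18 h over mTeSR1, where 6 were called with the block (424), 1 was called with no replicate block (181), 2 with identifiers kept apart (254), 3 with length offsets and no replicate block (267), 0 without the same pair of libraries (89), and 0 to 7 with 1 library left out (10 to 523). With only the 2 groups in the fit, which also removed the block, 0 were called (8). For WNT3A at 6 h over mTeSR1, where 0 were called (66), KCNK5 was the 1 called with no filter (173) and with DESeq2 (249), and CACNG8 the 1 called with length offsets and the replicate block (286). For WNT3A at 18 h over 6 h, where 0 were called (22), 1 was called with the replicate block (279), 3 with no filter (275), 4 with DESeq2 (415) and 4 with length offsets and the replicate block (577), CACNA1E among them each time. Counts for CHIR99021 at 6 h over mTeSR1 and over WNT3A at 6 h, and for CHIR99021 at 18 h over 6 h and over WNT3A at 18 h, were 0 throughout. The cause of the other differences was not tested. The members' median log2 change over mTeSR1 ranged from −0.68 to −0.36 with WNT3A and from −0.66 to −0.41 with CHIR99021 at 18 h over the alternatives. With 2 libraries per group precision was limited, although KCNS3, CACNG8 and CACNA1A passed with changes under 1 log2 unit after 18 h of CHIR99021.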
